A study of Homo sapiens with 2 samples.

Results

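The genes described here are 6 inhibitors of cyclin-dependent kinases (CDKs) and 3 genes that flank the CDKN2A/CDKN2B locus on the short arm of chromosome 9 (band 9p21). They comprise the 4 INK4 inhibitors CDKN2A, CDKN2B, CDKN2C and CDKN2D, the 2 KIP inhibitors CDKN1B and CDKN1C, and the 3 neighbours MTAP, KLHL9 and DMRTA1. The genes were chosen by name, with earlier results of these data known. All 9 were found among the 28649 named genes that both libraries list with a usable estimate. Transcript levels came from a recombinant derivative of U2OS, an osteosarcoma line, labelled G1S-CCMP-Cas9 U2OS. It carries a green fluorescent reporter of cell cycle phase, fused to the C-terminal domain of the helicase HELB, and expresses Cas9 from a CAG promoter. The 2 replicate libraries of poly(A) RNA form 1 group of untreated cells, so nothing was compared between conditions and no test was made. Separate cultures are not stated in the labels, and the spread between the replicates may be technical.

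INK4 proteins bind CDK4 and CDK6 and keep them from pairing with D-type cyclins, which slows entry into S phase through the retinoblastoma protein. KIP proteins bind complexes of cyclins with CDK2 and related kinases. CDKN2A has alternative first exons: one gives p16-INK4A, the other gives p14-ARF, a protein that binds MDM2. In tumours the CDKN2A/CDKN2B locus is often deleted or silenced, and MTAP, which lies beside it, is often lost in the same deletion. MTAP encodes methylthioadenosine phosphorylase, the enzyme that recycles the by-product of polyamine synthesis to methionine.

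Levels are FPKM, a fragment number divided by transcript length and by library size, and genes at FPKM 1 or more in both libraries are called detected. In the deposited values, transcripts with few fragments fell on whole multiples of a step, 1 fragment each, which gave the depth. Of 1851 low values in replicate 1, 99.9% came within 0.1 of a whole number of fragments, as did 99.8% of 1940 in replicate 2. The totals behind the scaling were about 76300000 fragments in replicate 1 and 73500000 in replicate 2, a ratio of 1.04. The bone-lineage markers RUNX2, SPARC, COL1A1 and ALPL, listed to check the osteosarcoma label, lay between 1.76 and 312 FPKM over both libraries.

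In all, 7 of the 9 genes were detected. Among all named genes 41.1% were detected, and among named protein-coding genes 59.2%. CDKN1B, CDKN2C, KLHL9 and MTAP were above 10 FPKM, CDKN2D, CDKN1C and DMRTA1 lay between 1.59 and 6.48 FPKM, and CDKN2A and CDKN2B were close to 0. The gene nearest the threshold from above, DMRTA1, had 263 and 246 fragments in replicates 1 and 2, and CDKN2B, the nearest from below, had 3 and 2. Genes were called as differing between the libraries where log2 of (FPKM + 1) in replicate 2 over replicate 1 was 1 or more in absolute value and the confidence bounds in the files were apart. This held for 146 of 12090 genes tested (1.21%), and for 0 of the 7 detected genes here.

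**Figure D1:**
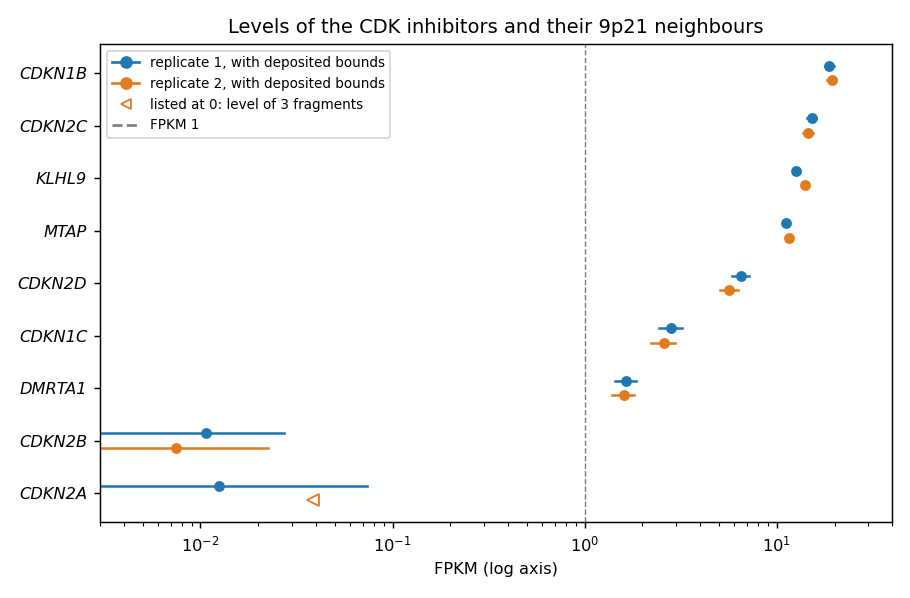
FPKM of each gene in both libraries on a log axis, with the deposited confidence bounds as lines, and the detection threshold of FPKM 1 dashed. The open triangle marks the level that 3 fragments would give CDKN2A in replicate 2, where it is listed at 0. CDKN2A and CDKN2B lie far below the other genes in both libraries.

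CDKN2A, the gene of p16-INK4A and p14-ARF, was nearly silent (GRCh38, chr9:21967752-21994491, minus strand). It stood at 0.0125 FPKM in replicate 1 and was listed at 0 in replicate 2. The value in replicate 1 equals 1 fragment, with an exact Poisson 95% interval of 0.0253 to 5.57 fragments. The interval and the limits given below cover counting error only. That fragment was assigned to NM_000077.4, the transcript of p16-INK4A. The ARF transcript NM_058195.3 and 3 other listed transcripts were at 0 in both libraries. A count of 0 in replicate 2 has a 2-sided interval of 0 to 3.69 fragments. As a 1-sided limit it allows up to 3 fragments, which for the p16 transcript in replicate 2 is 0.0388 FPKM and for the ARF transcript 0.0414 FPKM in replicate 1 and 0.0430 FPKM in replicate 2. CDKN2A was thus not detectable at this depth beyond a single fragment.

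CDKN2B encodes p15-INK4B, an inhibitor that transforming growth factor beta is known to induce in epithelial cells (chr9:22002903-22009313, minus strand). It stood at 0.0107 FPKM in replicate 1 and 0.00743 FPKM in replicate 2. These values equal 3 fragments (0.619 to 8.77) and 2 fragments (0.242 to 7.22) by the same interval. All of them were assigned to NM_004936.3, and the other listed transcript, NM_078487.2, was at 0 in both libraries. The libraries overlapped for CDKN2A and CDKN2B, so the levels of these genes could not be ordered.

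The promoter windows of the silent and the expressed genes are set side by side because CDKN2A and CDKN2B were near 0 and CDKN2C and MTAP were above 10 FPKM in both libraries. Each window holds 250 bases before and 50 after a RefSeq start on GRCh38.p14, read in the direction of the gene, with CpG dinucleotides in capitals. The positions are chr9:21995275-21995574 (minus strand) for the ARF start, chr9:21974808-21975107 (minus) for the p16 start, chr9:22009256-22009555 (minus) for CDKN2B, chr1:50968456-50968755 (plus) for the CDKN2C start nearest its main transcript, and chr9:21802386-21802685 (plus) for MTAP.
CDKN2A, ARF start: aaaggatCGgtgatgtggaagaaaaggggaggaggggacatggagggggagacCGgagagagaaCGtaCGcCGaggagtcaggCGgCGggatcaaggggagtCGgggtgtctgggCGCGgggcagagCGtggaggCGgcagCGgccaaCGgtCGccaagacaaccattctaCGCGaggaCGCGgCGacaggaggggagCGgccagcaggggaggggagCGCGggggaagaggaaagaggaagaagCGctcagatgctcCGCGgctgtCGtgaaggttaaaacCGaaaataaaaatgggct
CDKN2A, p16 start: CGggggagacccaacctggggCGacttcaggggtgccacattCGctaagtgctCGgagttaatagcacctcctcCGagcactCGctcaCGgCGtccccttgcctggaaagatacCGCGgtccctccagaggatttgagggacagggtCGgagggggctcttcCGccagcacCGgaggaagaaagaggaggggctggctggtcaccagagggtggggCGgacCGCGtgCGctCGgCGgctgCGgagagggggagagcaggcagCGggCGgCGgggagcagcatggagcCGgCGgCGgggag
CDKN2B: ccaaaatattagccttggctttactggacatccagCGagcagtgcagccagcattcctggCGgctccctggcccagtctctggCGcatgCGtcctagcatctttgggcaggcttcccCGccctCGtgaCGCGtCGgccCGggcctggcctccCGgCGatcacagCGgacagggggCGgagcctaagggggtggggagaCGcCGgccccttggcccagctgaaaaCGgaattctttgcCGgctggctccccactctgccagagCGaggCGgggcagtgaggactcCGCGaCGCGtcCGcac
CDKN2C: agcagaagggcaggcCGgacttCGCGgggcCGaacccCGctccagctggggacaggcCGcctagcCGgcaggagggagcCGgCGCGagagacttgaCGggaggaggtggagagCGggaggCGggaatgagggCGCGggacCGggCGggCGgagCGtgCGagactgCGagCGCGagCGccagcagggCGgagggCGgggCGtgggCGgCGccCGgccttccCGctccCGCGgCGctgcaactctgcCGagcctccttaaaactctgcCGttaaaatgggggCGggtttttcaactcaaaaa
MTAP: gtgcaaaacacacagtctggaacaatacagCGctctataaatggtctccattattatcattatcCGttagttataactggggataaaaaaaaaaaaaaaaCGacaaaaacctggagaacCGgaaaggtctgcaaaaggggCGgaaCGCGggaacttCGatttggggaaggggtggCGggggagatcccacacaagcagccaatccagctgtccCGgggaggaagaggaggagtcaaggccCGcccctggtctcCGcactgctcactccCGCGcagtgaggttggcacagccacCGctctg
The ARF window holds 28 CpG, the p16 window 26, the CDKN2B window 25, the CDKN2C window 37 and the MTAP window 15. The median of the 35116 promoters in the table is 14 CpG, with quartiles of 4 and 28. Further starts of CDKN2C have windows with 8 and 11 CpG, fewer than any of the 3 windows of CDKN2A and CDKN2B. The start with 8 CpG lies 7950 bases upstream of the listed CDKN2C locus. No locus was assembled in that stretch in either library, so use of this start was not seen. Among the other expressed genes, the windows hold 36 CpG for CDKN2D, 29 for CDKN1B, 19 for KLHL9 and 16 for DMRTA1. The nearly silent genes and the expressed genes therefore did not separate by CpG number. Windows of expressed genes lay both above and below those of CDKN2A and CDKN2B. DNA methylation was not measured. The E2F-type motifs TTTCCCGC and TTTGGCGC, searched on both strands, occur in 1.63% and 0.652% of all promoters in the table. Neither occurs in any of the 11 windows of the 8 genes that have one, which says only that these letters are absent there. CDKN1C has no window in the table. The starts in the RefSeq table are not those the files list for CDKN2A: the listed p16 transcript begins 276 bases upstream of the RefSeq start, whereas the RefSeq ARF start lies 833 bases upstream of the start of the listed transcript. For MTAP the starts are the same.

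The other INK4 genes were expressed. CDKN2C, which encodes p18-INK4C (chr1:50968695-50974637, plus strand), stood at 15.2 FPKM in replicate 1 (bounds 14.3 to 16.1) and 14.6 FPKM in replicate 2 (13.7 to 15.45), a mean of 14.9 ± 0.437 (SD, n = 2). These levels rest on 2018 and 1830 fragments. The mean is higher than that of 57.4% of the genes detected in both libraries. CDKN2D, which encodes p19-INK4D (chr19:10566462-10568979, minus strand), was at 6.48 FPKM in replicate 1 (5.81 to 7.14) and 5.67 FPKM in replicate 2 (5.05 to 6.29), a mean of 6.07 ± 0.570 (SD, n = 2). CDKN2C was 2.35 times as high as CDKN2D in replicate 1 and 2.57 times in replicate 2, and the bounds of the genes did not overlap in either library.

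Transcript use differed between these genes. NM_001262.2 carried 82.1% of the CDKN2C level in replicate 1 and 78.1% in replicate 2. NM_078626.2, a shorter transcript whose listed start lies farther downstream, carried the rest, at 2.72 and 3.19 FPKM. Both libraries thus gave the same order of the transcripts. The whole level of CDKN2D lay in NM_079421.2, and NM_001800.3 was at 0 in both libraries.

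CDKN1B was the highest of the 9 genes. It encodes p27-KIP1, which binds cyclin E-CDK2 and is removed by the SCF-SKP2 ubiquitin ligase before S phase (chr12:12716038-12722371, plus strand). Its level was 18.8 FPKM in replicate 1 (17.8 to 19.8) and 19.3 FPKM in replicate 2 (18.2 to 20.3), a mean of 19.05 ± 0.338 (SD, n = 2), from 3174 and 3135 fragments. All of it lay in NM_004064.3, and the predicted transcript XM_006719178.1 was at 0. The libraries overlapped in their bounds, and the CDKN1B level exceeded that of CDKN2C by a ratio of 1.24 in replicate 1 and 1.32 in replicate 2, with bounds that did not overlap between the genes.

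CDKN1C, the gene of p57-KIP2, is imprinted and expressed mainly from the maternal allele (chr11:2883218-2885832, minus strand). It was at 2.82 FPKM in replicate 1 (2.45 to 3.19) and 2.57 FPKM in replicate 2 (2.204 to 2.94), a mean of 2.70 ± 0.176 (SD, n = 2), from 272 and 222 fragments. CDKN1B was 6.66 times as high in replicate 1 and 7.49 times in replicate 2. The locus level was close between the libraries, while the transcripts that made it up were not the same. In replicate 1 the predicted transcript XM_005252732.2 held 73.04% and NM_000076.2 held 27.0% of it. In replicate 2 both of these were at 0, and 2 transcripts assembled from the reads held 70.6% and 20.3%, with 9.05% in the predicted transcript XM_005252731.1. The main assembled transcript has the same outer ends as XM_005252732.2 and is 1298 bases long against 1293. Counted over reference transcripts alone, CDKN1C was at 2.82 FPKM in replicate 1 and at 0.233 FPKM in replicate 2. The locus level of CDKN1C is therefore usable, and its split into transcripts is not comparable between these libraries.

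CDKN1A, which encodes p21-CIP1, is the remaining KIP-type inhibitor. It was at 159 FPKM in replicate 1 (154 to 164). Its estimate is marked as failed in replicate 2, so no mean is given.

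**Figure D2:**
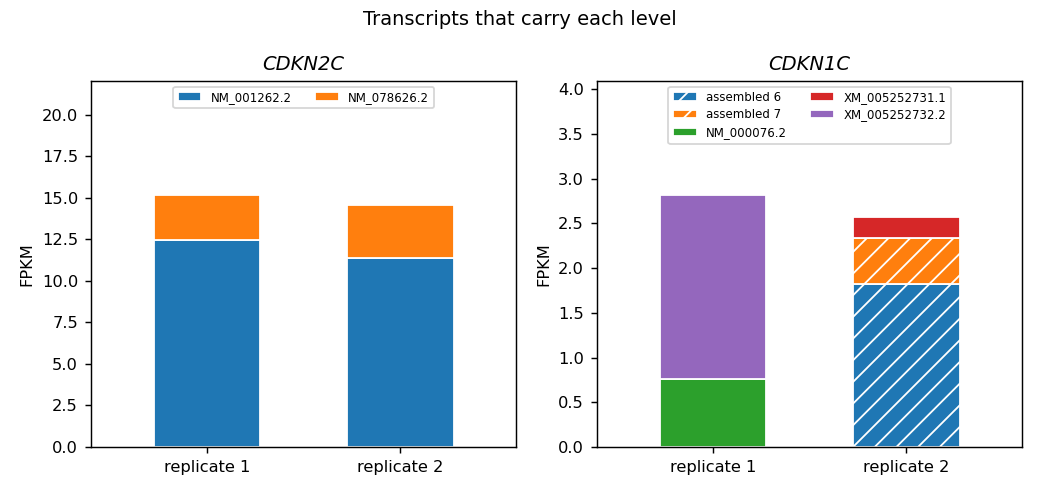
FPKM of CDKN2C and CDKN1C in each library, stacked by transcript, with hatched parts for transcripts assembled from the reads. The CDKN2C stack has the same 2 transcripts in both libraries, at 12.5 and 2.72 FPKM in replicate 1 and 11.4 and 3.19 FPKM in replicate 2, and the CDKN1C stack shares none between them.

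The genes that flank CDKN2A and CDKN2B were all expressed. MTAP (chr9:21802636-21865971, plus strand) was at 11.2 FPKM in replicate 1 (10.8 to 11.5) and 11.5 FPKM in replicate 2 (11.2 to 11.9), a mean of 11.3 ± 0.250 (SD, n = 2), from 4022 and 3997 fragments. Its mean exceeded that of 48.8% of the genes detected in both libraries. KLHL9 (chr9:21331019-21335430, minus strand), an adaptor of a CUL3 ubiquitin ligase that acts on Aurora B in mitosis, was at 12.5 FPKM in replicate 1 (12.1 to 12.9) and 13.97 FPKM in replicate 2 (13.5 to 14.4), a mean of 13.3 ± 1.02 (SD, n = 2). As deposited, the bounds of KLHL9 did not overlap between the libraries. How many of all genes had bounds apart at any ratio was not counted, nor were bounds alone compared after rescaling. Its log2 ratio was 0.15, below the value of 1 needed for a call, and higher than that of 76.8% of the genes tested. DMRTA1 (chr9:22446841-22452473, plus strand), a gene with a DM DNA-binding domain, was at 1.64 FPKM in replicate 1 (1.44 to 1.85) and 1.59 FPKM in replicate 2 (1.39 to 1.80), a mean of 1.62 ± 0.0336 (SD, n = 2), from 263 and 246 fragments.

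By mean level the order was CDKN1B, CDKN2C, KLHL9, MTAP, CDKN2D, CDKN1C and DMRTA1, then CDKN2B and CDKN2A. Both libraries gave the same order down to DMRTA1. The bounds of neighbours in this order overlapped for CDKN2C and KLHL9 in replicate 2, where the ratio was 1.04, and for CDKN2B and CDKN2A in both libraries. For the other neighbours the bounds were apart in both libraries. The bounds describe the estimate within a library and not the spread between cultures.

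Within 2.5 Mb of CDKN2A on either side lie 38 named genes, 34 named by symbol and 4 noncoding genes identified by an equal start in the NCBI table, and 7 of the 38 were detected. Of the 26 protein-coding genes there, 6 were detected, namely MLLT3, FOCAD, KLHL9, MTAP, DMRTA1 and ELAVL2. The shares detected were 41.1% over all named genes and 59.2% over named protein-coding genes. Without the interferon genes, 6 of the 10 protein-coding genes left in the window were detected. FOCAD, which encodes focadhesin, was at 6.49 ± 0.0235 FPKM and ELAVL2, an RNA-binding protein gene, at 4.04 ± 0.185 FPKM. MLLT3, a subunit of complexes that promote transcription elongation, was at 2.42 ± 0.247 FPKM (SD, n = 2 for each of these). The long noncoding RNA gene LINC01239, the nearest named gene beyond DMRTA1, was at 2.36 FPKM in replicate 1 and 3.70 FPKM in replicate 2, of which assembled transcripts held 1.31 and 3.70 FPKM. The type I interferon cluster, which surrounds KLHL9, accounts for 16 of the 38 genes. None of the 16 was detected, 14 were listed at 0 in both libraries, and the highest value was 0.0321 FPKM, for IFNE in replicate 2. IFNA5 and IFNA6, on either side of KLHL9, were listed at 0 in both. KLHL9 was thus an expressed gene among genes at or near 0.

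The noncoding genes at the locus were low. CDKN2B-AS1 (ANRIL), an antisense RNA that overlaps CDKN2B and is known to bind Polycomb proteins, was at 0.124 FPKM in replicate 1 (0.0355 to 0.213) and 0.252 FPKM in replicate 2 (0.136 to 0.369), from 23 and 37 fragments. The locus was identified by a start equal to that of the gene in the NCBI table. In replicate 2 its whole level lay in an assembled transcript. Both values are above those of CDKN2A and CDKN2B and below FPKM 1. CDKN2A-AS1 and LOC102724137 were listed at 0 in both libraries, as was MIR31, a precursor that a poly(A) library is not made to catch. MIR31HG, the host transcript of MIR31, was at 0.0961 ± 0.00254 FPKM (SD, n = 2).

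Unnamed loci were also assembled from the reads around the 9p21 genes. Between KLHL9 and MTAP, over 467 kb, 9 loci were assembled in replicate 1 and 15 in replicate 2. Those of 500 bases or longer, 2 and 5 in number, held 1213 and 1446 fragments. Of these, 885 and 328 fragments in replicate 1 and 1019 and 349 in replicate 2 lay in loci that overlap the pseudogene KHSRPP1. How uniquely reads were placed at pseudogenes was not tested. Loci inside the span of MIR31HG were shorter and reached 79.1 FPKM at 277 bases in replicate 1 and 1253 FPKM at 116 bases in replicate 2, values that the level listed for MIR31HG does not include.

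Between the listed end of MTAP and CDKN2A, 11 unnamed loci were assembled in replicate 1 and 16 in replicate 2. All of them lie inside the longer MTAP record of the NCBI table, which runs 75144 bases past the listed end to position 21941115. In each library 4 of them overlap an exon of MTAP in GENCODE 29. Their levels ran from 0.362 to 4.58 FPKM in replicate 1 and from 0.401 to 2.31 FPKM in replicate 2. Those of 500 bases or longer held 880 and 1292 fragments, which equals 21.9% and 32.3% of the fragments assigned to MTAP itself. These totals pool loci that overlap an exon with loci that overlap none. The 4 that overlap an exon held 51, 198, 300 and 81 fragments in replicate 1. In replicate 2 the 4 held 44, 27, 601 and 71. The listed MTAP level therefore leaves out fragments from the region its newer record covers. The strand of these loci is not known, as the sources used here do not state whether counting used it.

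From position 21936051 in replicate 1 and 21935850 in replicate 2 up to CDKN2A, no locus was assembled. Between the start of CDKN2A and the end of CDKN2B, a stretch of 41.6 kb, 0 loci were assembled apart from the listed genes in either library. Between CDKN2B and DMRTA1, over 438 kb, 3 loci were assembled in replicate 1 and 10 in replicate 2. Those of 500 bases or longer numbered 0 in replicate 1 and 3 in replicate 2, with 38 fragments in all. An 80-base locus within CDKN2B-AS1, which also overlaps the pseudogene UBA52P6, had 459 FPKM in replicate 1 and 422 FPKM in replicate 2. FPKM is inflated in loci so short, and their fragments were not counted.

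**Figure D3:**
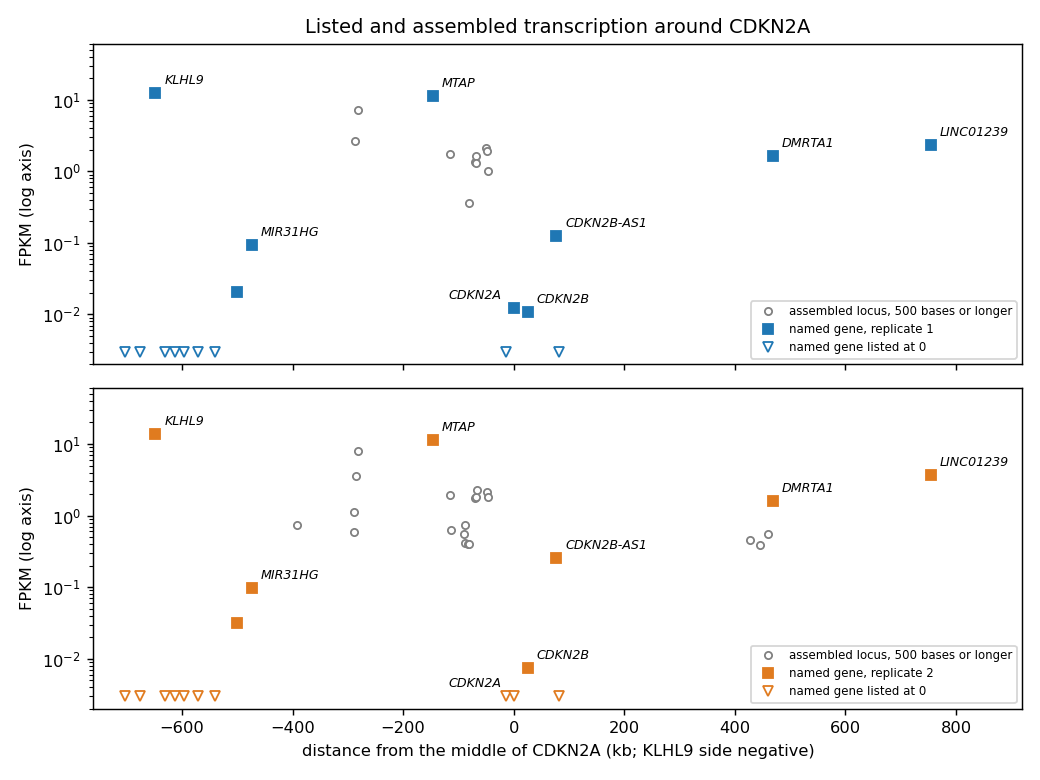
FPKM on a log axis against distance from the middle of CDKN2A in kb, with replicate 1 above and replicate 2 below. Squares are named genes, open circles assembled loci of 500 bases or longer between KLHL9 and DMRTA1, and open triangles at the lower edge named genes listed at 0; CDKN2A and CDKN2B lie between MTAP and DMRTA1, which are above FPKM 1 in both libraries.

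The kinases and cyclins on which the inhibitors act were all detected. Of the 10 CDK partners, CDK1 (119 ± 0.513 FPKM), CDK4 (113 ± 20.5) and the cyclin A gene CCNA2 (79.6 ± 3.30; SD, n = 2 each) were highest. CDK4 and CDK6, the kinases that INK4 proteins bind, stood at 128 and 98.6 FPKM and at 42.1 and 61.6 FPKM in replicates 1 and 2. None of the 10 was called as differing between the libraries. Their median mean level was 58.6 FPKM, beside 11.8 FPKM over all genes detected in both libraries.

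Genes known to repress or activate the INK4 locus were also mostly detected. Of the 20 repressors, which include Polycomb subunits, 19 were detected, and 0 of the 18 that could be called were. ID1, an inhibitor of ETS and bHLH factors, was highest at 179 ± 21.7 FPKM, followed by the Polycomb genes BMI1 (43.2 ± 1.01) and RING1 (38.9 ± 3.998; SD, n = 2 each). The T-box repressor TBX2 was the exception, at 0.0206 FPKM in replicate 1 and 0.0171 FPKM in replicate 2. All 5 activators were detected. Among them JUNB was at 22.1 ± 1.51 FPKM, ETS1 at 10.9 ± 1.53, DMTF1 at 8.999 ± 3.47, ETS2 at 5.68 ± 0.546 and the H3K27 demethylase gene KDM6B at 2.36 ± 0.584 (SD, n = 2 each). Of the proteins that p14-ARF binds or acts through, NPM1 was at 1059 ± 67.6 FPKM and MDM2 at 94.7 ± 14.9 (SD, n = 2 each).

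The genes that set p27 and p57 levels after transcription were detected, 7 of 7. SKP2, the substrate receptor for p27, was at 34.8 ± 5.71 FPKM and its cofactor CKS1B at 151 ± 29.3. The SCF subunits SKP1 and CUL1 were at 62.8 ± 0.276 and 10.9 ± 0.601, and FBXL12, a receptor reported for p57, at 8.38 ± 1.80. RNF123 and UBAC1, which form the KPC ligase for p27, were at 12.4 ± 1.52 and 22.7 ± 3.48 (SD, n = 2 each). The FOXO factors, which activate CDKN1B, were low but all detected: FOXO3 at 6.56 ± 0.562 FPKM, FOXO1 at 2.71 ± 0.0888, FOXO4 at 2.51 ± 0.0715 and FOXO6 at 2.07 ± 0.570 (SD, n = 2 each).

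All 10 genes of methionine salvage and polyamine synthesis were detected, led by ODC1 (201 ± 5.88 FPKM), which starts polyamine synthesis, SRM (135 ± 45.5), the spermidine synthase, and SMS (106 ± 0.393; SD, n = 2 each), the spermine synthase. SRM had the widest spread of these, with 167 FPKM in replicate 1 and 103 FPKM in replicate 2, and was not called. The arginine methyltransferase PRMT5, which the MTAP substrate is known to inhibit, was at 70.6 ± 10.497 FPKM, with its partners CLNS1A at 87.5 ± 5.54, WDR77 at 51.8 ± 12.4 and RIOK1 at 14.8 ± 1.38 (SD, n = 2 each).

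The partners of KLHL9 were detected, 5 of 5. CUL3 was at 35.4 ± 2.57 FPKM, RBX1 at 36.3 ± 7.32, the substrate AURKB at 44.2 ± 10.1, KLHL21 at 4.03 ± 0.680 and KLHL13, which forms a ligase with KLHL9, at 1.88 ± 0.0423 (SD, n = 2 each). KLHL9 thus had more FPKM than KLHL13 in both libraries.

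Of the 8 other DM domain genes listed, 0 were detected at FPKM 1, although DMRT1 was above 0.5 in both libraries. DMRT1 was at 0.685 ± 0.0862 FPKM, DMRT3 at 0.225 ± 0.0752 and DMRT2 at 0.0317 ± 0.000851 (SD, n = 2 each). DMRTA2 was listed at 0 in replicate 1 and at 0.0189 FPKM in replicate 2, and DMRTB1, DMRTC1, DMRTC1B and DMRTC2 were listed at 0 in both.

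Of the 6 genes near CDKN1C at 11p15.5, an imprinted region, 4 were detected. PHLDA2 was at 9.27 ± 3.06 FPKM, SLC22A18, a transporter gene named SLC67A1 in the NCBI table, at 7.09 ± 2.83, the growth factor gene IGF2 at 4.12 ± 0.561 and the antisense RNA KCNQ1OT1 at 1.41 ± 0.450 (SD, n = 2 each). The noncoding RNA H19 was at 0.429 and 0.523 FPKM in replicates 1 and 2, and KCNQ1 was listed at 0 in both. The bounds of H19, 0 to 2.25 in replicate 1 and 0 to 2.41 in replicate 2, span the threshold of FPKM 1. KCNQ1OT1 and H19 were identified by their starts. PHLDA2 and SLC22A18 had lower values in replicate 2, with log2 ratios of -0.62 and -0.73 (-0.48 and -0.61 after rescaling to a common sum). KCNQ1OT1, IGF2 and H19 had higher values there, with log2 ratios of 0.38, 0.22 and 0.09 (0.63, 0.41 and 0.23 after rescaling). The genes of this region thus did not move in 1 direction. The ratio of CDKN1C was -0.10, which turned to 0.04 after rescaling and was -1.63 over reference transcripts alone. PHLDA2 and CDKN1C were not called, and SLC22A18 has no bounds and could not be. Over all 81 genes of these lists 70 were detected. Of the 65 that could be called, 0 were, beside 1.21% of all genes tested. These 65 have bounds and FPKM 1 or more in a library. Genes identified by their start, such as KCNQ1OT1, were not tested for a call.

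**Figure D4:**
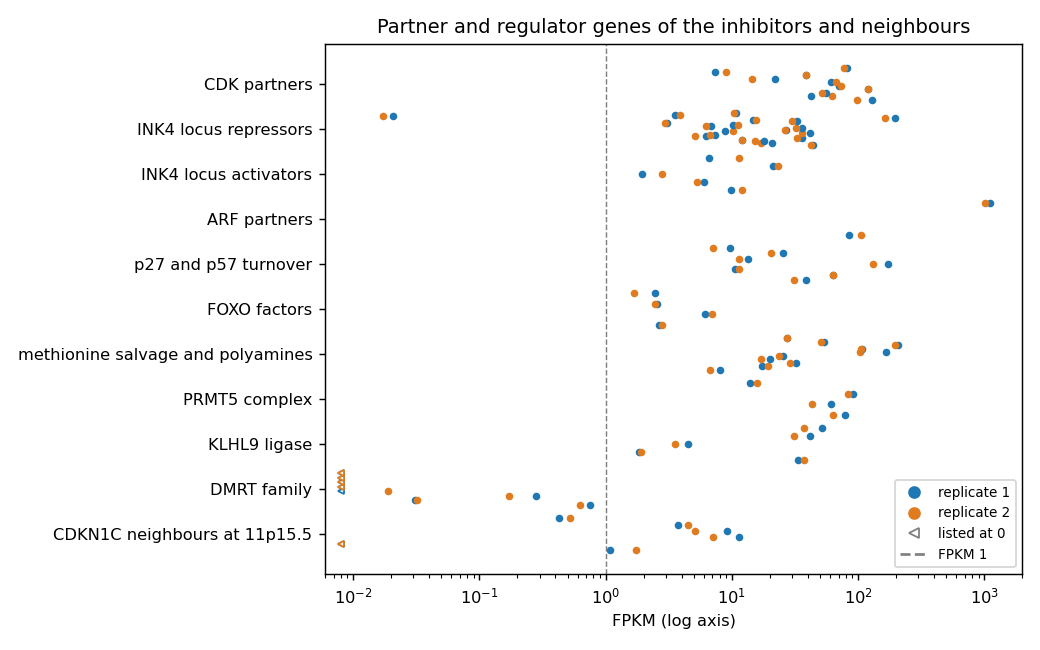
FPKM on a log axis of the genes in each list, 1 row of points per list, with replicate 1 in blue and replicate 2 in orange, the detection threshold dashed and genes listed at 0 as open triangles at the left edge. All genes of the CDK, ARF, p27 and p57, FOXO, methionine, PRMT5 and KLHL9 lists and of the INK4 locus activators lie above FPKM 1, and the genes of the DMRT family lie below it.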

How the data were processed

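Poly(A) RNA of untreated cells was sequenced in 2 replicate libraries. Per the labels' protocols, a directional library kit was used after poly(A) capture. Cufflinks 2.2.1, TopHat2 2.0.13 with Bowtie2 2.2.3, and Trimmomatic 0.32 with FastQC 0.11.2 are named in the submitters' processing notes, with build GRCh38. Neither settings nor an annotation release is stated in these sources. The authors deposited FPKM for genes and for transcripts, with confidence bounds and a status (per the file headers). A coverage column, deposited for transcripts only, was used for no value.

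Genes were named by RefSeq accession in an NCBI gene table (GRCh38.p14) or by the files. Noncoding genes at 9p21 and 11p15.5 that had no name were matched by an equal start. A gene's value is that of its locus, assembled transcripts included, except at loci shared by several symbols (such as BMI1, KDM6B and IGF2), where its reference transcripts were summed; 44 genes with a failed estimate were left out. File starts count from 0, and 1 was added. Sequences are from RefSeq promoter tables (GRCh38.p14), and exons of MTAP from GENCODE 29.

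The value of 1 fragment was fitted over single-transcript reference genes of 700 bases or longer. Fragment numbers are FPKM times the transcript length less 202 bases, divided by that step, and none is given for assembled loci under 500 bases. Both this step and the calls were tested on simulated data. Poisson intervals are exact, at 95%. Ratios use a pseudocount of 1. Assembly was separate in the 2 libraries, and assembled transcripts were not matched between them.

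The text names all 9 genes, CDKN1A and CDKN2B-AS1, the detected genes and nearest neighbours at 9p21, and of each list every gene (lists of up to 8), or the highest 3 and those under FPKM 1. IFNE, MIR31HG, UBA52P6, KHSRPP1 and the values of CDK6 were added after they were seen. 1 further gene of the lists was left out of all values and counts. Genes and lists were chosen with earlier results of these data known. Software was Python 3.11.15 with numpy 2.4.6, pandas 2.3.3, matplotlib 3.10.9 and scipy 1.17.1.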

Additional observations from a re-analysis of the deposited data

How the results depend on the processing

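The number of these genes detected, 7, stayed 7 at thresholds of FPKM 0.5 and 0.1, with a lower bound above 0, and in either library alone. It was 5 at FPKM 5, and 6 with reference transcripts alone, where CDKN1C dropped out because its level in replicate 2 was 0.233 FPKM; its mean was then 1.53 FPKM and its log2 ratio -1.63. No gene here was called with a pseudocount of 0.1 or after rescaling each library to a common sum, while the calls over all genes numbered 246 and 225. Dropping the filter on low values left 146 calls. That setting could add none, since with a pseudocount of 1 a call already needs FPKM 1 or more in a library. Rescaling moved the median log2 ratio of all genes to 0.13 (-0.04 as deposited). It also moved the ratios of the detected genes here. They went from 0.03 to 0.21 for CDKN1B, 0.04 to 0.22 for MTAP and 0.15 to 0.33 for KLHL9. CDKN2C turned from -0.06 to 0.12, CDKN1C from -0.10 to 0.04 and DMRTA1 from -0.03 to 0.11, and CDKN2D went from -0.16 to -0.01. With a window of 5 Mb on either side of CDKN2A, 19 genes were detected in place of 7, and with 1 Mb 5 were. Within 2.5 Mb the count was 10 at FPKM 0.1. It was 6 with reference transcripts alone, where LINC01239 dropped out. No paired analysis was possible because there is 1 group. With 2 libraries, a difference between them has no replicate check, and CDKN2A and CDKN2B rest on 3 fragments or fewer.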
